A study of Rattus norvegicus with 24 samples.

Results

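Hif1a, Vegfa and Kdr are 3 genes that link the response to low oxygen with the growth of blood vessels, and their transcript levels were followed in the heart septum of 24 rats. They were taken by identifier and chromosome, a rule that holds no expression value, and make up 3 of the 30562 annotated genes in the deposited count table. Earlier results of these data were known when they were chosen. In the mRatBN7.2 build, Hif1a (ENSRNOG00000008292) lies on chromosome 6 from 92624390 to 92669261, with 15 separate exonic stretches that sum to 3700 bp. Vegfa (ENSRNOG00000019598) lies on chromosome 9 from 14955300 to 14970641, with 10 exonic stretches summing to 3755 bp. Kdr (ENSRNOG00000046829) lies on chromosome 14 from 32217871 to 32261018, with 30 exonic stretches summing to 7025 bp. All are on the plus strand, and 0 other annotated genes overlap any of them. Counts cover exons, so the values below are summed over all isoforms of each gene.

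The animals were Sprague-Dawley rats, all of which had undergone cardiac ischemia-reperfusion, a temporary block of blood flow to the heart. All carried a cannula into a brain ventricle that delivered leptin, an appetite-regulating hormone made by fat, or vehicle without a break, and the septum was sampled at day 28. The 4 groups of 6 rats had intact brown adipose tissue (BAT) with vehicle, intact BAT with leptin, ablated BAT with leptin, and BAT whose sympathetic nerves had been removed, also with leptin. The vehicle group and the intact leptin group compare leptin with its vehicle, and the ablated and denervated groups ask whether BAT and its nerves matter under leptin. No vehicle-treated rats with ablated or denervated BAT and no uninjured rats were among the samples used here, so the effect of either operation without leptin, or of the injury itself, could not be measured. Each library is a separately numbered rat.

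Hif1a encodes the oxygen-regulated subunit of hypoxia-inducible factor 1, a transcription factor whose protein is degraded when oxygen is plentiful and accumulates when it is scarce. Much of its control therefore acts on the protein, which transcript counts do not measure. Vegfa, a secreted growth factor of the vessel wall, is among the classical targets of the factor, and in the heart cardiomyocytes are a main source of it. Kdr, also called VEGF receptor 2, is the receptor tyrosine kinase through which VEGF-A acts on endothelial cells, so ligand and receptor come largely from different cells.

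The promoters of the members are shown because hypoxia-inducible factor binds DNA at a short core, written here as ACGTG on either strand. The windows are RefSeq promoter windows of the GRCr8 build, from 250 bases before to 50 after the annotated start, on the plus strand. This build is not the one in which the reads were counted. Capitals mark ACGTG or its reverse complement CACGT, and the GC box GGGCGG or its reverse complement CCGCCC, the element to which Sp1-type factors bind. The Hif1a window is chr6:98359648-98359947, the first Vegfa window is chr9:22452604-22452903, and the Kdr window is chr14:32571813-32572112.
Hif1a: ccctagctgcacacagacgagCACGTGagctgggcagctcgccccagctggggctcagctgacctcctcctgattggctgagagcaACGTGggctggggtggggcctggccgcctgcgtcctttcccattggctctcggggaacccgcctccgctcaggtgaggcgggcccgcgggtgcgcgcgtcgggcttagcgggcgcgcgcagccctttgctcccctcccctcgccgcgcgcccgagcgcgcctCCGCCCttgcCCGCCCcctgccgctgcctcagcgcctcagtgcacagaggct
Vegfa: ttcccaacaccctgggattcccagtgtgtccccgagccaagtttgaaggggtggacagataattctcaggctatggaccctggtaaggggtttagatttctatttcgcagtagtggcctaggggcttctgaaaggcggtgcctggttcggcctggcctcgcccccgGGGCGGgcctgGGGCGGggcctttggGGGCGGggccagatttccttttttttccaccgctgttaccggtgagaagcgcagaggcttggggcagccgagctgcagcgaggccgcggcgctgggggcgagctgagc
Kdr: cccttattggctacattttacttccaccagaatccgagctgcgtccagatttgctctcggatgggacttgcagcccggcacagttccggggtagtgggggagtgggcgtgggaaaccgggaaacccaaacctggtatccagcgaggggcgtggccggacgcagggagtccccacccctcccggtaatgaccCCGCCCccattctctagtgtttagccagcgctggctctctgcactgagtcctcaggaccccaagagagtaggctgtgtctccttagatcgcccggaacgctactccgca

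The Hif1a window held 3 matches to the hypoxia core, of which an ACGTG and a CACGT overlap in a single CACGTG, and 2 GC boxes. The first Vegfa window held 0 matches to ACGTG or CACGT and 3 GC boxes, and the Kdr window held 0 such matches and 1 GC box. Other forms of the hypoxia core were not searched in any window. A second Vegfa window, chr9:22460028-22460327, held neither motif and is not printed. Of all 33469 promoter windows of this length, 19.3% held ACGTG or CACGT and 33.1% a GC box. The GC content was 73.7% for Hif1a, 63.3% for the first Vegfa window and 61% for Kdr, against a median of 51.7% over all windows. A match is a run of letters, not a binding site, and its absence says only that these letters are not in this window.

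The 24 libraries held between 71587993 and 122910706 counted reads, of which 23.1% to 45.9% fell on the mitochondrial chromosome. The 7 libraries with the highest rat numbers (vehicle replicates 4 to 6, leptin replicate 6, ablation replicate 6, and denervation replicates 5 and 6) stood apart from the other 17 on the first principal component of all genes, which carried 45.9% of the variance. The labels do not say whether rat numbers mark a cohort, a date or a library batch. Because the 7 libraries are spread 3, 1, 1 and 2 over the vehicle, leptin, ablation and denervation groups, every comparison is given both as designed and with a term for the 7 higher-numbered rats, called the rat-number term below. That boundary was read from these same libraries. Mitochondrial shares ran from 26.4% to 35.2% (median 33.3%) in the 7 and from 23.1% to 45.9% (median 33.4%) in the 17. By group, they ran from 33.3% to 36.6% with vehicle and from 23.7% to 29.8% with denervation, with no overlap. With leptin at intact BAT they ran from 24.4% to 41.1%, and with ablation from 23.1% to 45.9%. The defining markers of the septum could not be checked, since no table used here pairs the identifiers with gene names beyond the 3 members.

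Vegfa was by far the most abundant of the 3 transcripts. Per kilobase of exon, its mean level was 328 CPM (read counts scaled to library size), above 99.2% of the 17347 genes tested. Kdr followed with 20.6 CPM per kilobase, above 86.9% of genes, and Hif1a with 7.02 CPM per kilobase, above 65.6%. Vegfa exceeded Kdr on this scale in 24 of 24 libraries, by 7.18- to 33.9-fold. Kdr exceeded Hif1a in 23 of 24 libraries, with ratios from 0.944 to 7.70; vehicle replicate 4 was the exception. The counts behind these levels were 1126 to 5157 reads per library for Hif1a, 50984 to 215087 for Vegfa and 7605 to 20731 for Kdr, so counting error is small beside the spread between rats. Between the lowest and the highest library, Hif1a differed 4.41-fold, Vegfa 4.00-fold and Kdr 2.84-fold. All levels below are CPM within 1 gene, not divided by length.

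**Figure D1:**
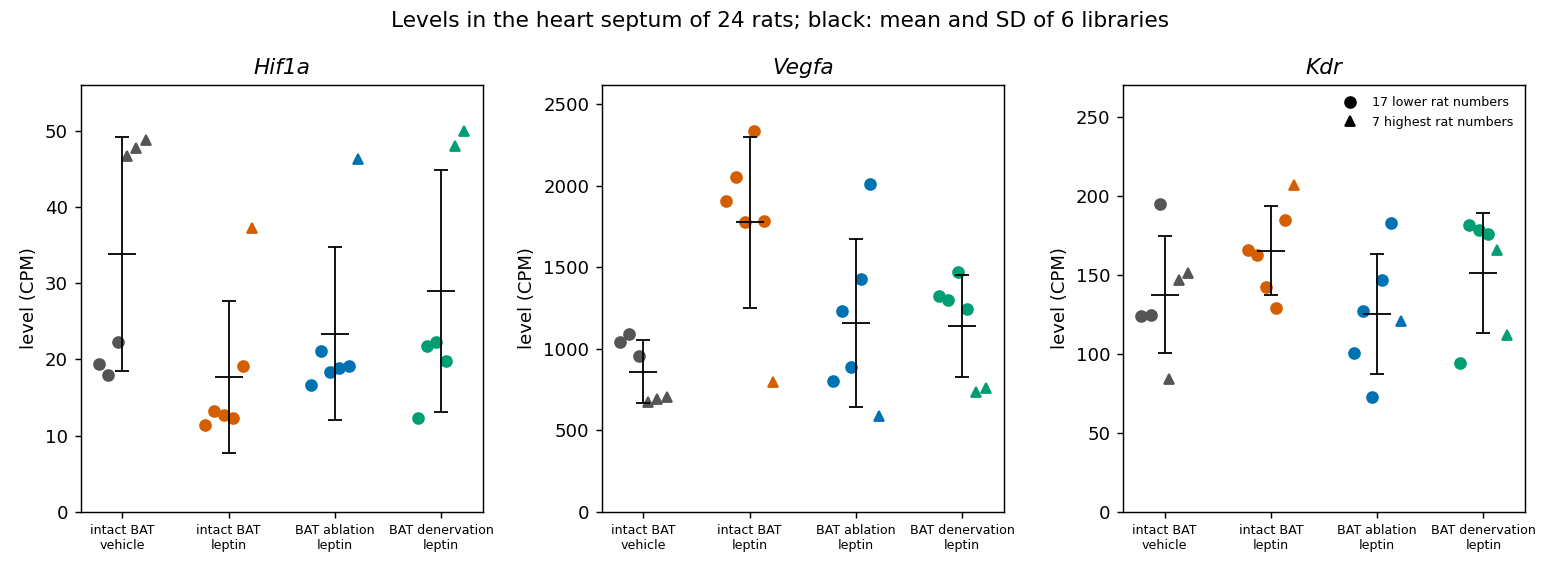
Level of each gene (CPM, linear axis from 0) in every library of the 4 groups of 6; circles are the 17 lower rat numbers, triangles the 7 highest, and black bars the group mean and SD. The triangles sit at 37.3 to 50.04 CPM for Hif1a, above all circles, and at 584 to 794 CPM for Vegfa, below all circles, whereas for Kdr they mix with the circles.

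Hif1a, the transcription factor, was lower with leptin than with vehicle at intact BAT once the sets of rat numbers were modelled. With that term it was 0.717 times the vehicle level, and both operated leptin groups lay above the intact leptin group. In edgeR as designed, without that term, 0 of the 3 differences passed the threshold, an adjusted p of 0.05. Without the 5 rats numbered 53 to 62 the 3 differences with the term shrank, and none passed (edgeR adjusted p = 0.540, 0.712 and 0.514). They went from -0.48 to -0.20 for leptin, from 0.43 to 0.10 for ablation and from 0.46 to 0.27 for denervation. Those 5 rats, singled out after seeing the data, held the lowest Hif1a values of all libraries (11.3 to 13.2 CPM). Leaving them out therefore raises the intact leptin level by itself, and of that group only replicates 5 and 6 remained. Over all genes, that fit called 21, 3 and 4 genes in the 3 comparisons. With rat number as a straight line in place of the term, the ablation difference turned to -0.17 (edgeR adjusted p = 0.545). In bulk tissue, fewer cells of a type and less RNA per cell cannot be told apart, here or for any value that follows.

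In the vehicle group Hif1a was 19.5, 17.9 and 22.2 CPM in the 3 lower-numbered rats and 46.7, 47.8 and 48.8 CPM in the 3 higher-numbered ones. In the intact leptin group it was 11.3, 13.2, 12.6, 12.3 and 19.2 CPM in the lower-numbered rats and 37.3 CPM in replicate 6. Of the 5 lower-numbered leptin rats 4 lay below every vehicle rat, while replicate 5 fell inside the vehicle range, and replicate 6 was the lowest of the 7 higher-numbered libraries. With ablation the values were 16.6, 21.1, 18.3, 18.9 and 19.1 CPM, and 46.3 CPM in the higher-numbered replicate 6. With denervation they were 12.4, 21.7, 22.2 and 19.8 CPM, and 48.0 and 50.04 CPM in the higher-numbered replicates 5 and 6. Within the lower-numbered rats the ablation and denervation groups thus overlapped the vehicle group, and denervation replicate 1 alone sat at the level of the 4 low leptin rats.

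The group means of Hif1a over all 6 libraries were 33.8 ± 15.4 CPM (SD, n = 6) for vehicle, 29.0 ± 15.9 (n = 6) for denervation, 23.4 ± 11.3 (n = 6) for ablation and 17.7 ± 10.0 (n = 6) for intact BAT with leptin. In that order no pair of neighbours passed the test as designed. In the 17 lower-numbered rats the means drew together to 19.9 ± 2.19 (n = 3), 19.0 ± 4.57 (n = 4) and 18.8 ± 1.59 (n = 5) for vehicle, denervation and ablation, with intact BAT and leptin at 13.7 ± 3.12 (n = 5).

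Fitted as designed with edgeR's quasi-likelihood test, Hif1a differed between leptin and vehicle by -0.94 ± 0.38 on the log2 scale (SE; 95% interval -1.73 to -0.14), with a Benjamini-Hochberg adjusted p of 0.153. That comparison called 117 of 17347 genes, or 0.674%. With the rat-number term the difference was -0.48 ± 0.13 (95% interval -0.75 to -0.21) with an edgeR adjusted p of 0.0374, in a fit that called 6.13% of genes. Ablation lay above intact BAT under leptin by 0.43 ± 0.13 with the term (95% interval 0.16 to 0.69; edgeR adjusted p = 0.0236), where 18.5% of genes were called, and by 0.41 ± 0.38 as designed (adjusted p = 0.637), where 3.03% were. The value as designed ran from 0.09 without ablation replicate 6 to 0.77 without leptin replicate 6, the higher-numbered rat of either group. Denervation lay above intact BAT under leptin by 0.46 ± 0.13 with the term (95% interval 0.19 to 0.73; edgeR adjusted p = 0.0383), where 6.65% of genes were called, and by 0.72 ± 0.38 as designed (adjusted p = 0.353), where 0% were. All these comparisons share the intact leptin rats, so they are not independent of each other. In the 17 lower-numbered rats alone the 3 differences of Hif1a were -0.53, 0.45 and 0.47 (edgeR adjusted p = 0.168, 0.0768 and 0.131). Over all genes, that fit called 0, 2033 and 1 genes in these 3 comparisons. Without the term, limma-voom with sample weights called Hif1a in leptin against vehicle at -1.59 (adjusted p = 3.2e-05), where it called 60.7% of all genes, and in denervation against intact BAT at 0.68 (adjusted p = 0.0481), where it called 22.8%. With rat number as a straight line, Hif1a was -0.66 in leptin against vehicle (edgeR adjusted p = 0.0377, at 6.16% of genes called). The test over any of the 4 groups gave an edgeR adjusted p of 0.0424 for Hif1a with the term, at 10.3% of genes called, and 0.381 as designed, at 0.0692%.

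Single libraries decided whether Hif1a passed in the fits with the rat-number term. The leptin against vehicle call was lost on leaving out leptin replicate 1, 2 or 4 or vehicle replicate 1, 2, 3, 5 or 6 (edgeR adjusted p from 0.00601 to 0.136 over 12 fits). The ablation call was lost without leptin replicate 1, 2 or 4 or ablation replicate 2, and the denervation call without leptin replicate 1, 2 or 4 or any of denervation replicates 2 to 6. The 4-group call held only on leaving out ablation replicate 4 or 5, denervation replicate 1 or leptin replicate 5. As designed, the leptin difference passed without leptin replicate 6, the higher-numbered leptin rat, at -1.30 on the log2 scale (edgeR adjusted p = 0.0235).

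Vegfa, the ligand, differed in the opposite direction to Hif1a. It was highest with leptin at intact BAT, 1.64 times the vehicle level with the rat-number term and 2.06 times as designed, and it was lower with ablation than with intact BAT under leptin, 0.657 times with the term. Of these edgeR fits those with the term passed the threshold and those as designed did not. Denervation also lay below intact BAT under leptin, but that difference did not pass in either of them. Without the 5 rats numbered 53 to 62 the differences with the term were 0.50 for leptin and -0.38 for ablation, and neither passed (edgeR adjusted p = 0.476 and 0.518). Of the intact leptin group only replicates 5 and 6 remained there. Over all genes, that fit called 21 and 3 genes in these comparisons.

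Vegfa in the vehicle group was 1044, 1088 and 958 CPM in the lower-numbered rats and 675, 690 and 704 CPM in the higher-numbered ones. With leptin and intact BAT it was 1903, 2053, 1775, 2337 and 1783 CPM in the lower-numbered rats and 794 CPM in replicate 6. Within each set of rat numbers every leptin rat was above every vehicle rat, although leptin replicate 6 was below the lower-numbered vehicle rats. With ablation Vegfa was 803, 1234, 885, 1428 and 2010 CPM, and 584 CPM in the higher-numbered replicate 6. With denervation it was 1325, 1301, 1468 and 1244 CPM, and 735 and 759 CPM in the higher-numbered replicates 5 and 6. The denervation rats lay between the vehicle and the intact leptin rats within each set, with no overlap, whereas the ablation rats ranged from below the vehicle rats to inside the intact leptin range. In the higher-numbered set these orders rest on 3 vehicle, 1 leptin and 2 denervation rats. How many of all genes show such orders was not counted.

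Over all 6 libraries Vegfa averaged 1774 ± 524 CPM (SD, n = 6) with intact BAT and leptin, 1157 ± 516 (n = 6) with ablation, 1139 ± 312 (n = 6) with denervation and 860 ± 191 (n = 6) with vehicle. In the 17 lower-numbered rats the order was intact BAT with leptin at 1970 ± 234 CPM (n = 5), denervation at 1334 ± 95.3 (n = 4), ablation at 1272 ± 485 (n = 5) and vehicle at 1030 ± 66.3 (n = 3). Denervation and ablation, neighbours in both orders, differed by less than their spread.

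As designed, Vegfa differed between leptin and vehicle by 1.05 ± 0.29 on the log2 scale (SE; 95% interval 0.45 to 1.64), with an edgeR adjusted p of 0.0703. Of all genes tested in that comparison, 1.98% had a smaller p. With the rat-number term Vegfa rose by 0.71 ± 0.19 (95% interval 0.33 to 1.10, edgeR adjusted p = 0.0301), in a fit that called 6.13% of genes. That call was lost on leaving out leptin replicate 1, 2 or 4 or any of the 3 lower-numbered vehicle replicates (adjusted p from 0.0212 to 0.119). Under DESeq2, without the term, the same difference was 1.07 (adjusted p = 0.0105), in a test that called 1538 of 15311 genes, or 10%. Limma-voom, also without the term, gave 1.40 (adjusted p = 2.5e-05), where it called 60.7% of all genes. Rat number as a straight line gave 0.85 (edgeR adjusted p = 0.0414, at 6.16% of genes called). In the 17 lower-numbered rats alone it was 0.94 (edgeR adjusted p = 0.142), in a fit that called 0 genes in that comparison. As designed it passed in edgeR on leaving out leptin replicate 6, at 1.20 (adjusted p = 0.0163).

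Between ablation and intact BAT under leptin, Vegfa differed by -0.61 ± 0.18 with the term (95% interval -0.97 to -0.24, edgeR adjusted p = 0.0203) and by -0.62 ± 0.29 as designed (adjusted p = 0.253). In that comparison 18.5% of genes were called with the term and 3.03% as designed. The call with the term was lost without leptin replicate 4 or without ablation replicate 1 or 3. In the 17 lower-numbered rats alone the difference was -0.63 (edgeR adjusted p = 0.0609), in a fit that called 2033 genes in that comparison. With limma-voom, without the term, it was -0.74 (adjusted p = 0.0205, at 17.4% of genes called). Between denervation and intact BAT the difference was -0.48 ± 0.18 with the term (edgeR adjusted p = 0.0921) and -0.64 ± 0.29 as designed (adjusted p = 0.274), and with the term it passed on leaving out leptin replicate 6, at -0.58 (adjusted p = 0.0481). Limma-voom called it without the term, at -0.61 (adjusted p = 0.0331, at 22.8% of genes called). The test over any of the 4 groups gave Vegfa an edgeR adjusted p of 0.0360 with the term, at 10.3% of genes called, and 0.157 as designed, at 0.0692%. The call with the term was lost on leaving out any 1 of 10 libraries: leptin replicates 1, 2 and 4, vehicle replicates 1 to 3, ablation replicates 2 and 3, and denervation replicates 2 and 4. The value as designed passed without leptin replicate 6 (adjusted p = 0.0472).

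Exact two-sided permutation tests of log2 CPM were run for all 18 combinations of member and comparison, and the p-values were adjusted over the 18. With labels exchanged freely among 12 libraries, 0 of the 18 passed, and Vegfa in leptin against vehicle, at a difference of 1.00, had the smallest adjusted p of 0.156. With labels exchanged only within the higher-numbered and within the lower-numbered rats, Vegfa was higher with leptin than with vehicle by 0.72 (exact permutation, adjusted p = 0.0268), by 0.93 in the lower-numbered and 0.20 in the higher-numbered rats. In the same test Vegfa was lower with denervation than with intact BAT under leptin by 0.45, a signed difference of -0.45 (exact permutation, adjusted p = 0.0257), and higher with denervation than with vehicle by 0.27 (exact permutation, adjusted p = 0.0257). Hif1a was lower with leptin than with vehicle, at -0.50 (exact permutation, adjusted p = 0.0402). Ablation against intact BAT under leptin gave -0.66 for Vegfa (exact permutation, adjusted p = 0.0571) and 0.45 for Hif1a (exact permutation, adjusted p = 0.0595), which missed the threshold. The permutation within sets was added after seeing the data, and its sets were read from these same libraries. It was run on the members only, so no share of all genes stands beside its calls.

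**Figure D2:**
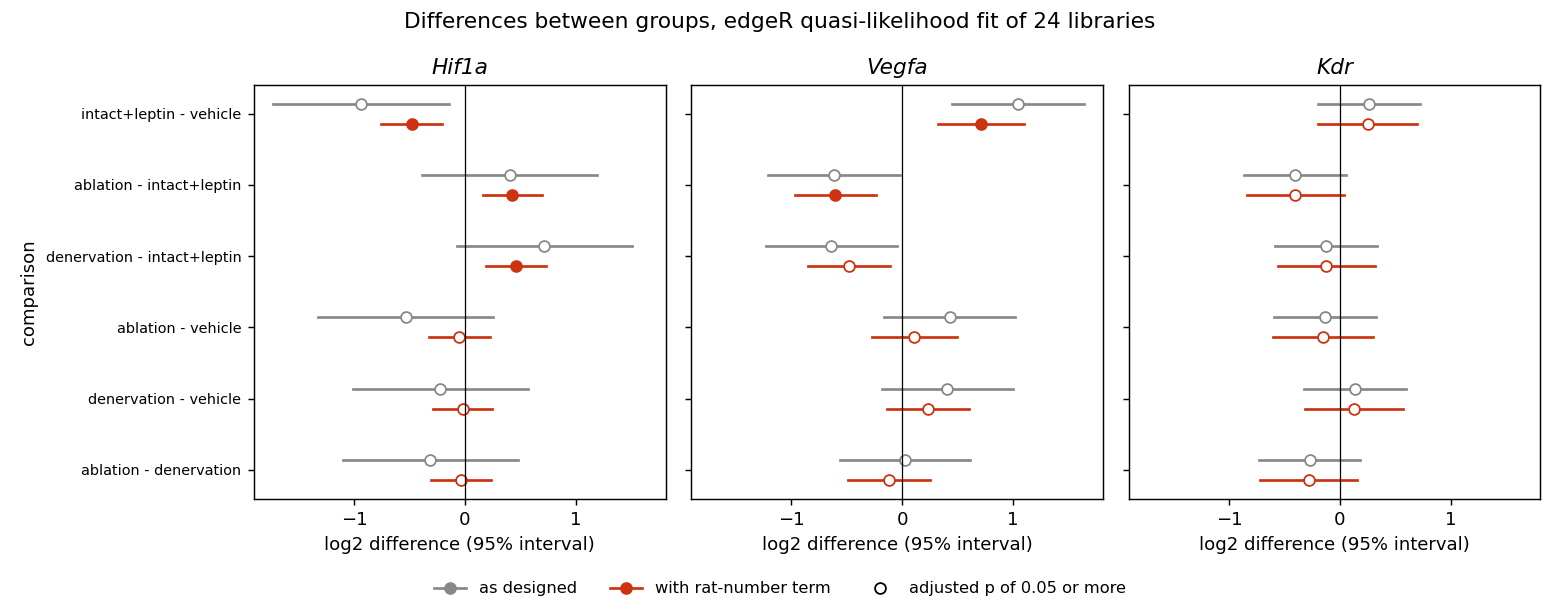
Log2 difference and 95% interval of each gene in the 6 comparisons, in edgeR's quasi-likelihood fit as designed (grey) and with the rat-number term (red); filled points have an adjusted p under 0.05. The filled points are Hif1a at -0.48, 0.43 and 0.46 and Vegfa at 0.71 and -0.61, all with the term and all in comparisons with the intact leptin group, and Kdr has none.

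In the 3 comparisons that do not involve the intact leptin group, neither Hif1a nor Vegfa passed in edgeR as designed or with the rat-number term. With ablation against vehicle, Hif1a differed by -0.53 as designed and -0.05 with the rat-number term (edgeR adjusted p = 0.518 and 0.930), and Vegfa by 0.43 and 0.11 (0.503 and 0.886). With denervation against vehicle, Hif1a differed by -0.22 and -0.02 and Vegfa by 0.41 and 0.23 (edgeR adjusted p = 1.00 for Hif1a and Vegfa as designed, 0.999 with the term). Between ablation and denervation Hif1a differed by -0.31 and -0.03 (edgeR adjusted p = 0.890 and 0.964) and Vegfa by 0.02 and -0.12 (0.988 and 0.881). The background was 0% of genes called in each of these comparisons, in both edgeR fits. As designed, 1892, 348 and 778 genes had an unadjusted p under 0.05 in the order given, DESeq2 called 20, 0 and 0, and limma-voom with sample weights called 9662, 8051 and 54. With the term, 1487, 659 and 1482 genes had an unadjusted p under 0.05. Other settings called members here. Limma-voom called Hif1a at -1.05 and Vegfa at 0.66 in ablation against vehicle (adjusted p = 0.000925 and 0.00552, at 55.7% of genes called), and at -0.92 and 0.79 in denervation against vehicle (adjusted p = 0.00243 and 0.00218, at 46.4%). With rat number as a straight line, edgeR called Hif1a at -0.83 and Vegfa at 0.65 in ablation against vehicle (adjusted p = 0.00247 and 0.0362, at 39.2%). It called Hif1a at -0.59 in ablation against denervation (adjusted p = 0.0320, at 19.5%). That line does not follow the step of Hif1a between the lower-numbered and the higher-numbered rats. For denervation against intact BAT under leptin, where edgeR as designed called 0 genes, 2836 had an unadjusted p under 0.05, DESeq2 called 433 and limma-voom 3955.

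Kdr, the receptor, passed the threshold in none of the 6 comparisons, nor in the 4-group test, in either edgeR fit. Its levels were 83.7, 135.5 and 195 CPM (lowest, median, highest) with vehicle and 129, 163.9 and 207 CPM with leptin at intact BAT. They were 72.7, 124 and 183 CPM with ablation and 94.2, 170.7 and 181 CPM with denervation. All 4 groups overlapped, and the higher-numbered rats held both the highest value, 207 CPM in leptin replicate 6, and one of the lowest, 83.7 CPM in vehicle replicate 4. The means were 165 ± 28.1 CPM (SD, n = 6) with intact BAT and leptin, 151 ± 38.2 (n = 6) with denervation, 137 ± 36.8 (n = 6) with vehicle and 125 ± 38.0 (n = 6) with ablation, and no neighbours in that order differed beyond their spread.

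The widest of the Kdr differences was between ablation and intact BAT under leptin, -0.40 ± 0.22 on the log2 scale as designed (95% interval -0.86 to 0.06; edgeR adjusted p = 0.364) and -0.40 ± 0.21 with the rat-number term (95% interval -0.84 to 0.03; adjusted p = 0.186). Leptin against vehicle gave 0.26 ± 0.22 (95% interval -0.19 to 0.72; edgeR adjusted p = 0.455), and denervation against intact BAT -0.13 ± 0.22 (95% interval -0.59 to 0.33; adjusted p = 0.787). The remaining comparisons gave -0.14 for ablation against vehicle, 0.14 for denervation against vehicle and -0.27 for ablation against denervation (edgeR adjusted p = 0.758, 1.00 and 0.890). The intervals against the intact leptin group do not show that Kdr was alike in the groups. In ablation against intact BAT, the Kdr interval included the Vegfa difference of the same fit, -0.62 as designed and -0.61 with the term. In denervation against intact BAT it did so with the term (-0.48), but not as designed (-0.64). In leptin against vehicle it did so in neither fit. Vegfa was 1.05 there as designed, and 0.71 with the term, where the Kdr interval ended at 0.70.

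The 2 sets of rat numbers did not overlap in Hif1a or in Vegfa, whereas every pair of treatment groups did over its 12 libraries. Hif1a ran from 11.3 to 22.2 CPM (median 18.9) in the 17 lower-numbered rats and from 37.3 to 50.04 CPM (median 47.8) in the 7 higher-numbered ones. Vegfa ran from 803 to 2337 CPM (median 1325) and from 584 to 794 CPM (median 704) in the same sets. In each of the 7 rats Hif1a was higher, and Vegfa lower, than in any of the 17. With group in the model, the higher-numbered rats differed by 1.33 on the log2 scale for Hif1a, more than 78.7% of genes in size, by -0.88 for Vegfa, more than 59.7%, and by -0.06 for Kdr, more than 4.33%. The median size over all genes was 0.71. These values are a description with no test, since the boundary came from the same libraries. How many of all genes kept the 2 sets apart was not counted. Vehicle rats make up 3 of the 7, so a comparison with vehicle that ignores the sets mixes the set with the group.

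**Figure D3:**
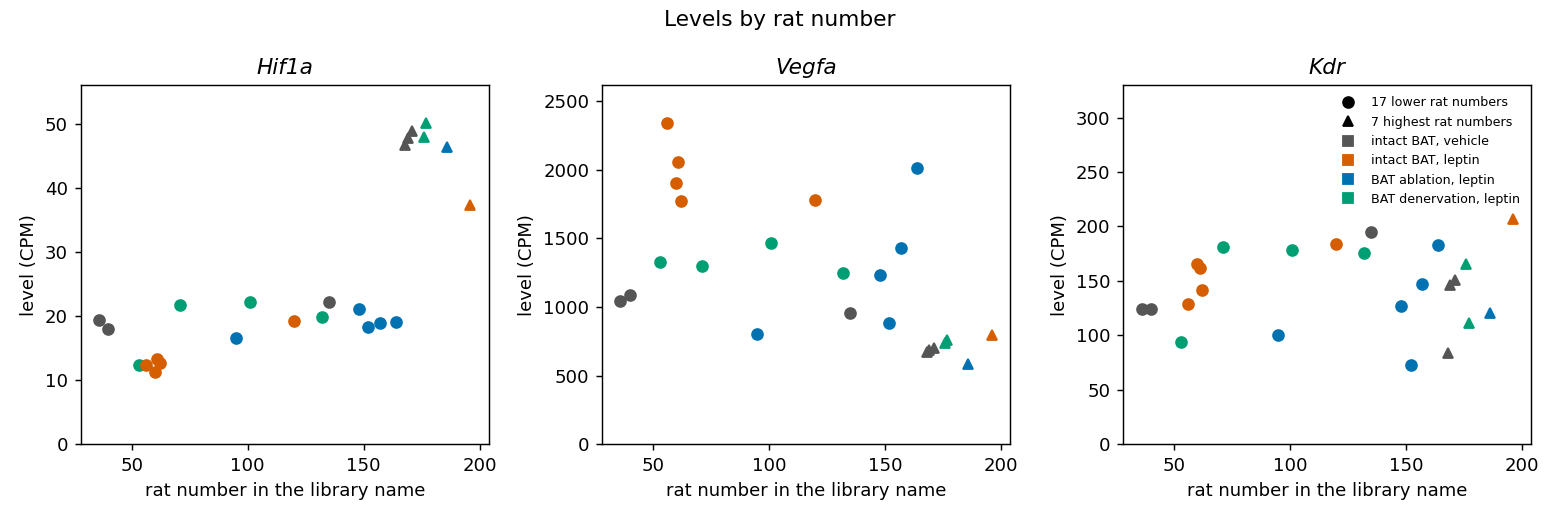
Level of each gene (CPM, linear axis from 0) against the rat number in the library name, coloured by group; triangles are the 7 highest numbers. Hif1a steps from at most 22.2 CPM in the 17 lower numbers to at least 37.3 CPM in the 7 highest, and Vegfa is at most 794 CPM in those 7.

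A second cluster of numbers touches the same results. The 5 rats numbered 53 to 62 were leptin replicates 1 to 4 and denervation replicate 1. Their Hif1a was 11.3 to 13.2 CPM in the 4 leptin rats and 12.4 CPM in the denervated one, while leptin replicate 5, number 120, had 19.2 CPM and the other 11 lower-numbered rats 16.6 to 22.2 CPM. Among the lower-numbered rats, the low Hif1a values were thus in rats with neighbouring numbers in both groups, and leptin replicate 5 was not low. Leptin replicate 6, a higher-numbered rat also distant in number, had 37.3 CPM, the lowest of the 7 higher-numbered libraries. The others of that set had 46.3 to 50.04 CPM. Vegfa split otherwise: it was 1775 to 2337 CPM in those 4 leptin rats and 1783 CPM in leptin replicate 5, but 1325 CPM in the denervated rat, inside the 803 to 2010 CPM of the other 11.

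Without these 5 rats, 19 libraries remained, and 0 of the calls with the rat-number term held for the members. Vegfa then differed between denervation and intact BAT under leptin by -0.26 (edgeR adjusted p = 0.821). Only 2 leptin rats with intact BAT remain in that fit, and over all genes it called 21, 3 and 4 genes in the 3 comparisons. Whether rat number or the groups carry these differences was not tested, and for the 4 leptin rats the number and the group cannot be told apart.

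From rat to rat, 0 of the 3 pairs of members were related beyond the adjusted threshold within either set of rat numbers. Because the libraries fall into 2 clusters, no coefficient over all 24 is given. Over the 17 lower-numbered rats, Pearson's r of log2 CPM between Hif1a and Vegfa was -0.50 (permutation p = 0.0397, adjusted over 3 pairs 0.0832) and Spearman's rho was -0.38 (permutation p = 0.131). Without the 2 libraries farthest from the median of Hif1a, r was -0.31. Vegfa and Kdr, ligand and receptor, had r = 0.47 (permutation p = 0.0554, adjusted 0.0832) and rho = 0.40 (permutation p = 0.108), and r = 0.49 without the 2 farthest libraries. Hif1a and Kdr had r = 0.27 (permutation p = 0.296, adjusted 0.296) and rho = 0.48 (permutation p = 0.0544). Over the 7 higher-numbered rats the 3 coefficients were -0.34, 0.49 and -0.55 in the same order (exact permutation, adjusted p = 0.377 for each). Spearman's rho was 0.21, 0.57 and -0.21 (exact permutation, p = 0.662, 0.20 and 0.662). Leaving out the 2 farthest libraries gave Pearson's r of 0.78, 0.29 and 0.71, so the negative signs rest on those 2 libraries.

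**Figure D4:**
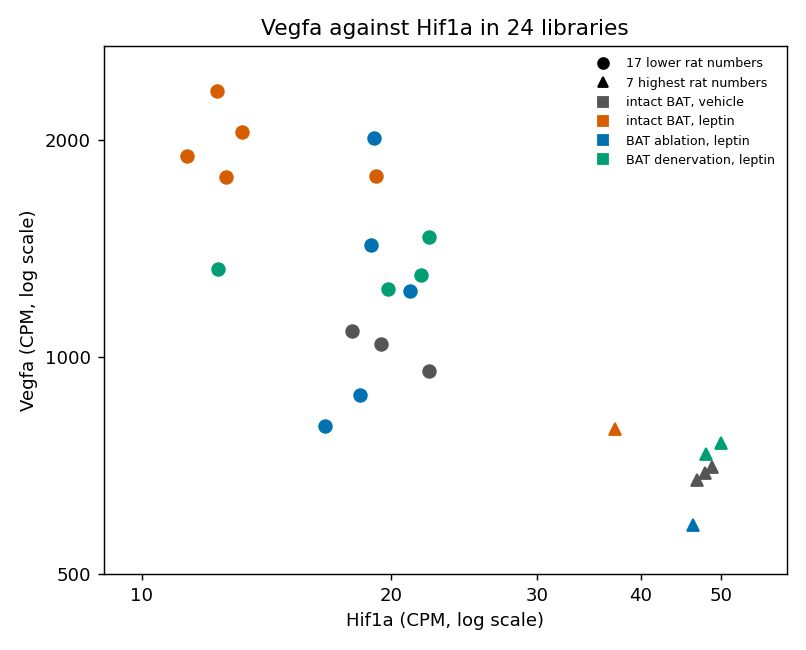
Vegfa against Hif1a (both CPM, log axes) in each of the 24 libraries, coloured by group, with triangles for the 7 highest rat numbers. The libraries form 2 clusters, with Hif1a at most 22.2 CPM or at least 37.3 CPM, and within the lower-numbered cluster 4 leptin rats lie at the upper left.

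The gene whose log2 CPM followed each member most closely over the 24 libraries was sought among 13382 tested genes with a mean of at least 1 CPM. For Hif1a it was ENSRNOG00000001868, on chromosome 11 from 83526530 to 83563238, with r = 0.99 over all libraries, 0.92 in the lower-numbered and 0.63 in the higher-numbered rats. For Vegfa it was ENSRNOG00000017117, on chromosome 10 from 54659719 to 54665371, with r = 0.97, 0.92 and 0.95. For Kdr it was ENSRNOG00000011154, on chromosome 9 from 17520009 to 17623968, with r = 0.77, 0.77 and 0.81. In all, 1331 genes had r above 0.9 with Hif1a, 107 with Vegfa and 0 with Kdr. Hif1a and Vegfa did not overlap between the sets of rat numbers, whereas Kdr did, and how far this shapes the counts was not tested. These coefficients describe likeness over 24 libraries in 2 clusters and were not tested.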

How the data were processed

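RNA was total RNA made into mRNASeq libraries, per the labels' protocols. Reads were sequenced as pairs, per the labels' protocols, aligned with STAR 2.7.10a, per the submitters' processing notes, and counted per gene with featureCounts, version 2.0.2 per those notes and 2.0.6 per the file header, on mRatBN7.2 with Ensembl annotation 113. The deposited values are raw read counts per gene, with no normalization by the authors. Counts of 2 were more frequent than counts of 1 (19013 against 5161), so both mates of a pair were mostly counted. DESeq2 and R 4.4.1 are also named in the notes.

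The 24 libraries were grouped by their titles. The count table held 5 further columns that matched no listed sample and were not used, and 0 libraries were identical. Counts were scaled by TMM, filtered by filterByExpr (17347 of 30562 genes, all 3 members included) and fitted over all 24 libraries with edgeR 4.0.16 (robust quasi-likelihood, R 4.3.3), with Benjamini-Hochberg adjustment over all genes and a threshold of 0.05. Standard errors were taken from the F statistic. Log2 CPM used a prior count of 2. Alternatives used DESeq2 1.42.0 and limma 3.58.1. The leptin against vehicle comparison was also run on simulated counts, with an outcome not given here. The fit as designed met only counts simulated without a rat-number difference. The fits with the rat-number term under other scalings, with a replicate block, without single libraries or without rats 53 to 62, and the permutation within sets, were added after seeing the data.

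The members, lists and alternatives were chosen with earlier results of these data known. The rule for named genes took the members and, for each, the genes most like it, of which the first is named. The planned pathway and cell-type lists were not run, because 0 of the 30562 identifiers were paired with a symbol in the reference used here.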

Additional observations from a re-analysis of the deposited data

Results flagged for a closer look

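In 3 cases a library lay farther from the rest of its group of 6 than a Dixon test at the 95% level allows, which chance alone gives in about 1 in 20 groups. Hif1a was 46.3 CPM in ablation replicate 6, the highest of its group, against 16.6 to 21.1 CPM in the other 5. Hif1a was 37.3 CPM in leptin replicate 6, again the highest, against 11.3 to 19.2 CPM. Vegfa was 794 CPM in the same leptin replicate, the lowest of its group, against 1775 to 2337 CPM. Each of these rats is the only one of its group among the 7 highest rat numbers.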

How the results depend on the processing

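Of the values for Hif1a, Vegfa and Kdr under settings other than leaving out a library, 313 kept direction and side of the threshold, 34 newly passed, 8 no longer passed and 11 turned direction. Leaving out 1 library at a time, 400 were kept, 4 newly passed, 59 no longer passed and 5 turned direction. The cause was not tested. All p-values here are Benjamini-Hochberg adjusted over all genes, from edgeR unless another tool is named. With the rat-number term, Hif1a was -0.48, 0.43 and 0.46 (leptin against vehicle, then ablation and denervation against intact leptin), Vegfa 0.71 and -0.61, and the 4-group p 0.0424 and 0.0360. Rat number as a straight line gave -0.66 and 0.85 for leptin, -0.17 for Hif1a in ablation against intact leptin, -0.83 and 0.65 for Hif1a and Vegfa in ablation against vehicle, -0.59 for Hif1a in ablation against denervation, and 4-group p of 0.00624 and 0.0309. With a replicate block, Hif1a in leptin against vehicle was -0.98 (edgeR adjusted p = 0.00892), Vegfa 0.98 (edgeR adjusted p = 0.0146) and the Hif1a 4-group p 0.0324. The labels tie the replicate numbers to no shared animal, litter or day. Deviations of same-numbered rats correlated above 0.1 in 24 of 36 pairs (lowest -0.340, median 0.200, against a median of -0.00932 for differently numbered pairs). Of the 24 libraries, 9 correlated best with their own number. In the median, same-numbered rats were thus more alike than others. In every group replicates 1 to 3 are lower-numbered rats and replicate 6 is a higher-numbered rat, so the block overlaps with the sets of rat numbers. Since no label ties them, the numbers were not taken as pairs. The block with the rat-number term gave Vegfa 0.63 (edgeR adjusted p = 0.0566). DESeq2 gave Vegfa 1.07 and a 4-group p of 0.0400. Limma-voom with sample weights gave, for leptin against vehicle, -1.59 (Hif1a) and 1.40 (Vegfa), for ablation against intact leptin -0.74 (Vegfa), for denervation against intact leptin 0.68, -0.61 and 0.088 (Hif1a, Vegfa, Kdr), for ablation against vehicle -1.05 and 0.66, for denervation against vehicle -0.92 and 0.79 (Hif1a, Vegfa), and 4-group p of 0.000221 and 0.000208.

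Vegfa in ablation against denervation, near 0, turned to -0.092 with library totals, -0.0069 with the replicate block, -0.12 with the rat-number term, -0.070 in the 17 lower-numbered rats, -0.13 with limma-voom, -0.042 in the permutation test and -0.19 within sets. Kdr in denervation against intact leptin turned to 0.0086 in the 17 rats and 0.029 with term and library totals. In the 17 rats, 0 of the calls made with the term held: edgeR adjusted p was 0.168, 0.0768 and 0.131 for Hif1a and 0.142 and 0.0609 for Vegfa, in the order above, and 0.164 and 0.0943 over 4 groups. Over all genes, the fit of the 17 rats called 0 in leptin against vehicle. It called 2033 in ablation and 1 in denervation against intact leptin. Within sets, permutation moved Hif1a to -0.50 and Vegfa to 0.72 (leptin), -0.45 (denervation against intact leptin) and 0.27 (denervation against vehicle). Without rats 53 to 62, the values with the term were -0.20, 0.10 and 0.27 (Hif1a), 0.50 and -0.38 (Vegfa), and 4-group p 0.427 and 0.587. Over all genes, that fit called 21 in leptin against vehicle, and 3 and 4 in ablation and denervation against intact leptin.

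Leaving out 1 library at a time, values as designed ran from -1.30 to -0.80 (Hif1a) and 0.95 to 1.20 (Vegfa) in leptin against vehicle, from -0.21 to 0.16 (Vegfa, ablation against denervation), and the Vegfa 4-group p from 0.0472 to 0.340. With the rat-number term, Hif1a ran from -0.59 to -0.43 (4 of 12 fits passed), 0.37 to 0.54 (8 of 12) and 0.41 to 0.57 (4 of 12), Vegfa from 0.65 to 0.83 (6 of 12), -0.80 to -0.51 (9 of 12) and -0.58 to -0.42 (1 of 12), in the order of comparisons above, Kdr in denervation against intact leptin from -0.18 to 0.0029, and the 4-group p from 0.00689 to 0.126 (Hif1a, 4 of 24) and 0.00340 to 0.0966 (Vegfa, 14 of 24).
Each value rests on at least 1126 reads per member and library, and the 6 rats per group limit its precision more than depth does.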
